A study of Rattus norvegicus with 12 samples.

Results

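A set of 9 genes that mark inhibitory neurons was followed through rat brain tissue after cerebral ischemia-reperfusion and electroacupuncture. They were taken by symbol from the deposited table: the neuropeptide genes Sst, Npy, Cck and Vip, the calcium buffer gene Pvalb, the transcription factor gene Lhx6, the GABA synthesis genes Gad1 and Gad2, and the vesicle transporter gene Slc32a1. All 9 were among the 18800 symbols of the table, and all 9 passed the filter on low counts that left 15487 genes for testing. Gad2 passed through a few samples only, as its values below show.

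Brain tissue of 3 groups of Sprague-Dawley rats was profiled by messenger RNA sequencing. The electroacupuncture group had middle cerebral artery occlusion with reperfusion, was restrained, and received electroacupuncture, a current passed through needles, at the Tianfu, Chize, Kongzui and Taiyuan points. The model group had the same operation and the same restraint without electroacupuncture. The control group was restrained without electroacupuncture, and its columns in the table are named as sham. All groups therefore shared the restraint. Age, sex, brain region, side of the brain and the time after the operation were not given in the sources used here, nor was whether samples came from separate animals. The labels list 12 samples, 4 per group, and the table holds 11 columns. In 3 pairs of columns of a group the counts differed by 1.338 to 1.399 times the sampling variance, against 4.74 to 26.5 times in the other 12 pairs within a group. Each such pair was counted as 1 sample, which left 8 samples: 3 with electroacupuncture (A to C), 2 of the model (A and B) and 3 controls (A to C). Electroacupuncture B, model A and model B are the summed pairs. Columns of different groups differed by 3.64 to 29.4 times the sampling variance, least between electroacupuncture C and control B. Total counts per sample ran from 9335913 to 23835724.

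Inhibitory neurons of the cortex and hippocampus make GABA from glutamate with the enzymes glutamate decarboxylase 67 (Gad1) and 65 (Gad2), and load it into vesicles with the transporter encoded by Slc32a1. Local inhibitory cells, the interneurons, fall into classes named by what else they make: parvalbumin in fast-spiking cells, somatostatin in cells that contact dendrites, vasoactive intestinal peptide in cells that inhibit other interneurons, and cholecystokinin in a class of basket cells. The principal neurons of the striatum also use GABA, so Gad1, Gad2 and Slc32a1 are strong there without marking interneurons.

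The samples differed in their regional markers, and not by group alone. Drd2, a dopamine receptor of striatal neurons, measured 151, 0.977 and 0.527 CPM (the count as a share of all counts of the sample, after scaling by the TMM method) in electroacupuncture A, B and C, against 13.3 and 2.40 CPM in the 2 model samples and 0.824, 0.909 and 0.458 CPM in the 3 controls. Prox1, the homeodomain factor of granule cells in the dentate gyrus, measured 9.79, 61.3 and 61.0 CPM in the electroacupuncture samples, 6.37 and 3.82 CPM in the model samples and 96.0, 70.8 and 62.6 CPM in the controls. Tbr1, a transcription factor of deep-layer neocortical projection neurons, measured 1.21, 5.61 and 2.64 CPM with electroacupuncture, 2.89 and 6.38 CPM in the model and 3.11, 2.4997 and 2.66 CPM in the controls. Electroacupuncture A thus stood apart by Drd2, and both model samples and electroacupuncture A were low in Prox1. None of Prox1, Drd1, Drd2, Ppp1r1b and Tbr1, which mark these regions, was at 0 in any sample. Summed over 11 striatal genes the level ran from 140 to 3565 CPM with electroacupuncture, 242 to 565 CPM in the model and 128 to 334 CPM in controls. Summed over 10 hippocampal genes it ran from 136 to 385, from 132 to 143 and from 409 to 451 CPM in the same order of groups. Summed over 11 neocortical genes it ran from 557 to 621, from 625 to 895 and from 556 to 688 CPM, with model B the highest. The part of these regional differences in the results below was not tested. In tissue RNA, fewer cells of a type and less RNA per cell cannot be told apart.

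The 9 genes were chosen by their group levels in these same samples, chiefly those of model against control, so that comparison is given here as levels and fold changes, with no test. Electroacupuncture against model and against control were tested in the same fit (edgeR quasi-likelihood test over all genes, Benjamini-Hochberg adjustment, threshold 0.05). These comparisons share the model and control samples with the one that was known.

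**Figure D1:**
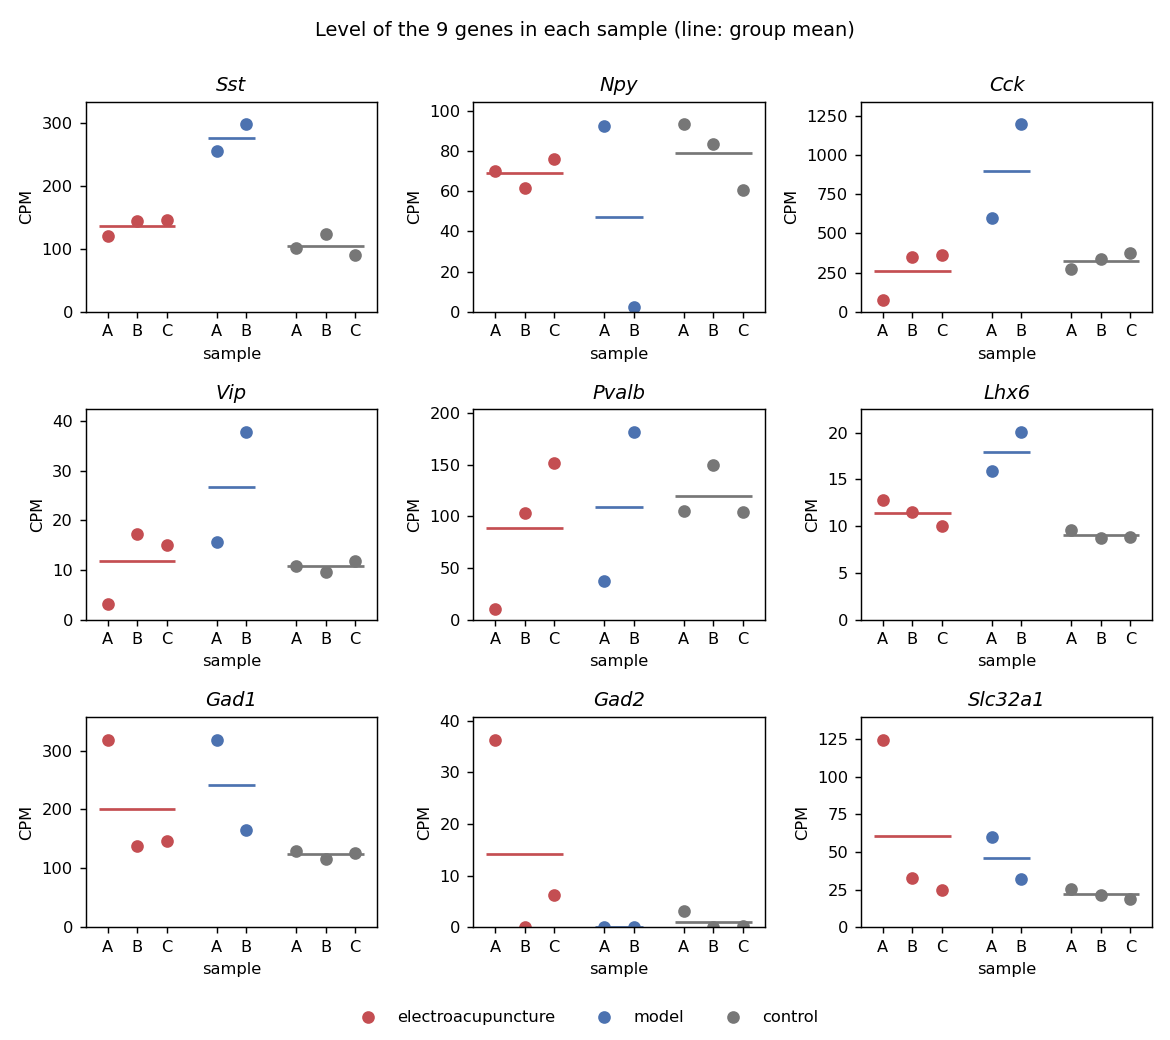
Level of each of the 9 genes (CPM, linear axis from 0) in the 3 electroacupuncture, 2 model and 3 control samples, with 1 point per sample and a line at the group mean. Sst lies at 255 and 298 CPM in the model samples, above all other samples, while Pvalb, Cck and Vip are lowest in electroacupuncture A, and Npy is at 2.18 CPM in model B.

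Sst encodes somatostatin, a peptide that dampens the activity of its target cells. It measured 121, 144 and 146 CPM in electroacupuncture A, B and C, against 255 and 298 CPM in the 2 model samples and 102, 123 and 90.7 CPM in the 3 controls. Both model samples lay above all 6 others, and the electroacupuncture samples overlapped the controls only through electroacupuncture A and control B. Group means were 137 ± 13.6 CPM with electroacupuncture (SD, n = 3), 277 ± 30.3 CPM in the model (SD, n = 2) and 105 ± 16.4 CPM in controls (SD, n = 3). Sst was 2.02-fold lower in estimate with electroacupuncture than in the model (log2 fold change -1.02, SE 0.18), with an adjusted p of 0.135 by edgeR's quasi-likelihood test. Against controls the electroacupuncture group was 1.301-fold higher in estimate (log2 fold change 0.38, SE 0.16, edgeR adjusted p = 0.843). The model stood 2.63-fold above controls (log2 fold change 1.395, SE 0.18).

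The promoter of rat Sst is the textbook case of a cyclic AMP response element, the site at which the activity-regulated factor CREB was characterised, and Vip is another peptide gene known to respond to cyclic AMP. Both are shown because these are the peptide genes whose windows hold the motif and whose model samples lay above all controls. The second condition uses levels that were known when the genes were chosen. The windows are RefSeq sequence of assembly GRCr8 on the plus strand, at chr11:90461296-90461595 for Sst and chr1:44470230-44470529 for Vip, and the capitals mark the motif.
Sst: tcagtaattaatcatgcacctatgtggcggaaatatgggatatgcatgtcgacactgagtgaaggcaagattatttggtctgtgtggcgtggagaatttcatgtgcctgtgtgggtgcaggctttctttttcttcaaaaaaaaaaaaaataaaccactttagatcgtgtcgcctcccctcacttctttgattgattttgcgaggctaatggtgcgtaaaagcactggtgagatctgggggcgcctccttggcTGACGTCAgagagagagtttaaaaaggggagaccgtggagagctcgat
Vip: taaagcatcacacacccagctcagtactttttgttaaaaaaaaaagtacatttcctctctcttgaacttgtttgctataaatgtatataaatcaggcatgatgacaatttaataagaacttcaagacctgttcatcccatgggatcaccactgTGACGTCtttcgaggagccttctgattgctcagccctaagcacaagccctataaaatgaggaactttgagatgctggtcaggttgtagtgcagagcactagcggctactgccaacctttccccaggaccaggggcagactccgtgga
The motif TGACGTCA, which reads the same on both strands, occurred once in the Sst window, at bases 253 to 260, just past the annotated gene start at base 251. The 7-letter form TGACGTC, searched on both strands and contained in the longer one, occurred once in the Vip window, at bases 154 to 160. Of 33469 gene windows of this length, 1.83% held TGACGTCA and 3.22% held TGACGTC. A window was found for 8 of the 9 genes, all but Cck, and only those of Sst and Vip held either form. The shorter TGACG was also searched, and 4 of the 8 windows held it: Sst, Vip, Pvalb and Slc32a1. It occurred in 21.2% of all windows. Lhx6, Gad1 and Slc32a1 also had both model samples above every control, and their windows held neither form. A match is a description of the letters and not evidence of binding. Whether cyclic AMP or CREB had a part in any of these levels was not tested.

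Npy encodes neuropeptide Y, which is made by several interneuron classes and restrains glutamate release. It measured 70.0, 61.4 and 76.2 CPM in electroacupuncture A, B and C, against 92.3 and 2.18 CPM in the 2 model samples and 93.3, 83.3 and 60.4 CPM in the controls. Model A lay within the control range, and model B lay far below the lowest of the other 7 samples, at 60.4 CPM. The estimate of electroacupuncture against model (log2 fold change 0.55, SE 1.09, edgeR adjusted p = 0.882) was therefore set by model B. Without model A it was 4.98, and it passed the threshold (edgeR adjusted p = 0.000935, with the lone model sample assumed to vary like the other groups), while without model B it turned to -0.41 (edgeR adjusted p = 0.602). Over all alternatives tried, the adjusted p for Npy in this comparison ran from 0.000935 to 0.952. Electroacupuncture and control samples overlapped (log2 fold change -0.19, SE 0.96, edgeR adjusted p = 0.968).

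The low value of Npy in model B was common to both of its columns, at 2.51 and 1.90 CPM. Their estimated counts were fractional, at 21.88 and 18.17, and fractional values for Npy occurred in 4 of the 11 columns. Model B had 44 genes, Npy among them, at less than a 20th of their lowest level elsewhere, counting genes at 20 CPM or more in each of the other 7 samples. The same count was 1 in electroacupuncture B, 1 in model A and 0 in each of the other 5 samples. Among the 43 other genes, chosen for mention after their values were seen, Calm3, a calmodulin gene, stood at 0.164 CPM in model B against 225 to 418 CPM elsewhere. Slc25a5, a carrier that exchanges ADP and ATP in mitochondria, stood at 3.38 CPM against 205 to 318 CPM. Upf1, a helicase of RNA decay that most cells use, stood at 0.982 CPM against 64.0 to 91.9 CPM. Pals2, which RefSeq places next to Npy and the table lists as Mpp6, measured 49.0 CPM in model B and 48.2 to 65.9 CPM elsewhere. Whether these values stand for absent RNA or for the way reads were counted was not tested.

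Cck encodes cholecystokinin, a peptide of one interneuron class and also of many neocortical pyramidal cells. It measured 75.4, 349 and 359 CPM in electroacupuncture A, B and C, against 598 and 1195 CPM in the 2 model samples and 271, 337 and 372 CPM in the controls. Every electroacupuncture sample lay below both model samples, and both model samples lay above every control. Electroacupuncture B and C were inside the control range, and electroacupuncture A was the lowest of all. Cck was 3.44-fold lower in estimate with electroacupuncture than in the model (log2 fold change -1.78, SE 0.61, edgeR adjusted p = 0.270), and the estimate was -1.34 without electroacupuncture A and -1.19 without model B. Against controls it was -0.32 (SE 0.55, edgeR adjusted p = 0.891), and it turned to 0.12 without electroacupuncture A. The model stood 2.75-fold above controls in estimate (log2 fold change 1.46, SE 0.60), with 0.87 without model B.

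Vip encodes vasoactive intestinal peptide. It measured 3.12, 17.2 and 15.1 CPM in electroacupuncture A, B and C, against 15.6 and 37.8 CPM in the 2 model samples and 10.8, 9.66 and 11.8 CPM in the controls. Electroacupuncture B and C and both model samples lay above every control, and electroacupuncture A lay below them all. The estimate of electroacupuncture against model was -1.18 on the log2 scale (SE 0.64, edgeR adjusted p = 0.488), and it was -0.39 without model B. Against controls it was 0.14 (SE 0.59, edgeR adjusted p = 0.962), 0.58 without electroacupuncture A and -0.26 without electroacupuncture B. The model stood at 1.31 above controls on the same scale (SE 0.64), and at 0.53 without model B. Vip and Cck were both highest in model B and lowest in electroacupuncture A, and genes of the neocortical list did not share 1 order over the samples. Tbr1 had that order, at 1.21, 5.61 and 2.64 CPM with electroacupuncture and 2.89 and 6.38 CPM in the model. Cux2, a factor of upper-layer neurons, measured 41.6, 27.4 and 17.7 CPM with electroacupuncture, 73.9 and 228 CPM in the model and 20.2, 19.5 and 18.1 CPM in controls. Bcl11b, a factor of deep-layer and striatal neurons, measured 190.5 CPM in electroacupuncture A and was lowest in model B, at 37.4 CPM.

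Pvalb encodes parvalbumin, the calcium-binding protein of fast-spiking interneurons. It measured 9.88, 104 and 152 CPM in electroacupuncture A, B and C, against 37.2 and 182 CPM in the 2 model samples and 105, 149 and 104 CPM in the controls. Electroacupuncture A and model A were low and the other 6 samples lay between 104 and 182 CPM, so the groups overlapped. Group means were 88.4 ± 72.1 CPM with electroacupuncture (SD, n = 3), 110 ± 102 CPM in the model (SD, n = 2) and 120 ± 25.8 CPM in controls (SD, n = 3). The log2 fold change was -0.31 against the model (SE 0.998, edgeR adjusted p = 0.931) and -0.44 against controls (SE 0.90, edgeR adjusted p = 0.907). Against the model the estimate turned to 0.22 without electroacupuncture A and to 1.25 without model B, and it was -0.95 without electroacupuncture C and -1.04 without model A. Against controls it turned to 0.09 without electroacupuncture A and was -1.06 without electroacupuncture C. The 2 samples with low Pvalb were those with the highest Drd2, at 151 and 13.3 CPM.

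Lhx6 encodes a homeodomain factor that, in mice, interneurons from the medial ganglionic eminence need in order to become somatostatin or parvalbumin cells. It measured 12.8, 11.5 and 10.01 CPM in electroacupuncture A, B and C, against 15.8 and 20.1 CPM in the 2 model samples and 9.62, 8.75 and 8.88 CPM in the controls. The groups formed separate ranges, with the electroacupuncture samples between the model above and the controls below. Lhx6 was 1.57-fold lower in estimate with electroacupuncture than in the model (log2 fold change -0.65, SE 0.20, edgeR adjusted p = 0.231) and 1.26-fold higher than in controls (log2 fold change 0.33, SE 0.18, edgeR adjusted p = 0.843). The model stood 1.98-fold above controls (log2 fold change 0.99, SE 0.20). All 11 columns held fractional values for Lhx6, and the sources used here do not say how the fractions arose. Its repeat columns in model B differed by 1.21 times. Within each sample the ratio of Sst to Lhx6 was 9.46, 12.6 and 14.5 in the electroacupuncture samples, 16.1 and 14.9 in the model samples and 10.6, 14.1 and 10.2 in the controls. The ratio of Pvalb to Lhx6 was 0.770, 9.04 and 15.1 with electroacupuncture, 2.34 and 9.06 in the model and 10.95, 17.1 and 11.7 in controls. The Sst ratio lay above every control in model A, model B and electroacupuncture C. Model A, model B, electroacupuncture A and electroacupuncture B each had a Pvalb ratio below every control, so low values were not particular to the model. Pvalb itself was highest of all samples in model B, at 182 CPM, where Lhx6 was also highest. Nothing is read from these ratios, since the genes were chosen by levels of model against control.

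**Figure D2:**
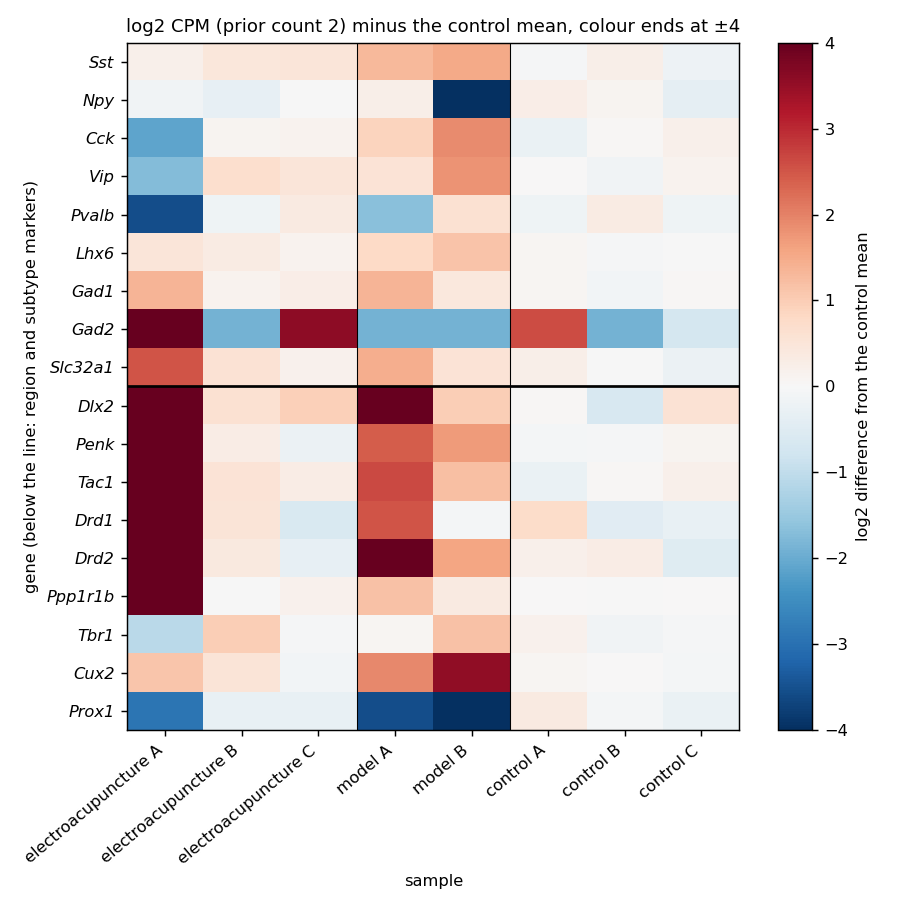
Each cell gives the log2 CPM (prior count 2) of a gene in a sample minus the mean of the control samples, with the 9 genes above the line and regional and subtype markers below it, electroacupuncture samples left, then model, then control. Slc32a1 and Gad1 are high in electroacupuncture A and model A, where Dlx2, Penk, Drd1 and Drd2 are also high, and Cck and Vip are highest in model B, where Tbr1 and Cux2 are highest.

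Gad1 encodes glutamate decarboxylase 67, which makes most of the GABA of resting neurons. It measured 318, 137 and 147 CPM in electroacupuncture A, B and C, against 318 and 166 CPM in the 2 model samples and 129, 115 and 127 CPM in the controls. Electroacupuncture A and model A stood at the same level, more than 2 times any control, and every electroacupuncture and model sample lay above every control. The log2 fold change was -0.27 against the model (SE 0.41, edgeR adjusted p = 0.840) and 0.70 against controls (SE 0.37, edgeR adjusted p = 0.843). The estimate against controls was 0.20 without electroacupuncture A. The model stood at 0.97 above controls (SE 0.41), and at 0.42 without model A.

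Slc32a1 encodes the vesicular transporter of GABA and glycine. It measured 125, 32.5 and 24.6 CPM in electroacupuncture A, B and C, against 59.8 and 31.8 CPM in the 2 model samples and 25.6, 21.6 and 18.5 CPM in the controls. Electroacupuncture A and model A were again the highest, electroacupuncture B and model B were close to each other, and electroacupuncture C lay within the control range. The log2 fold change was 0.40 against the model (SE 0.67, edgeR adjusted p = 0.858), and it turned to -0.67 without electroacupuncture A. Against controls it was 1.47 (SE 0.61, edgeR adjusted p = 0.843), and it was 0.39 without electroacupuncture A. The ratio of Gad1 to Slc32a1 within a sample was 2.55, 4.22 and 5.99 with electroacupuncture, 5.32 and 5.21 in the model and 5.04, 5.33 and 6.85 in controls, lowest in electroacupuncture A.

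Gad2 encodes glutamate decarboxylase 65, the form bound to synaptic vesicles. It measured 36.3, 0 and 6.22 CPM in electroacupuncture A, B and C, against 0 CPM in both model samples and 3.11, 0 and 0.183 CPM in the 3 controls. The near-identical columns gave the same picture: estimated counts of 0 and 0 in electroacupuncture B, 0 and 0 in model A, and 0.36 and 0 in model B. The counts behind the other samples were 419 in electroacupuncture A, 59 in electroacupuncture C, 34 in control A and 2 in control C. Gad1 in the same samples was between 115 and 318 CPM. A count of 0 over both model samples allows up to 0.081 CPM (3 counts over the group, for counting error only). Electroacupuncture C stood at 76.7 times that limit, electroacupuncture A was higher still, and electroacupuncture B held no read. The fitted fold changes are not given as sizes, since they depend on the prior count, and neither comparison passed (edgeR adjusted p = 0.355 against the model and 0.843 against controls).

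The samples in which Gad2 was counted crossed the groups. Electroacupuncture A, electroacupuncture C and control A held it, and the other 5 samples were at or under 0.183 CPM. Another 17 genes of the table had each of the same 3 samples at 10 or more times the highest of the same 5. These 17 were found after the values of Gad2 were seen. Trim37, a ubiquitin ligase, measured 120 and 148 CPM in electroacupuncture A and C and 184 CPM in control A, against 0.085 CPM in electroacupuncture B and 0 CPM in both model samples, control B and control C. Vps39, a tethering protein of lysosomes, measured 87.1 and 81.3 CPM in electroacupuncture A and C and 81.8 CPM in control A, and at most 0.255 CPM in the other 5. Crebbp, the coactivator of CREB, measured 69.9, 65.0 and 78.1 CPM in the same 3 samples, and at most 2.95 CPM in the other 5. Gria3, an AMPA receptor subunit, measured 102, 164 and 265 CPM, and at most 3.00 CPM in the other 5. Apbb1ip, the gene after Gad2 in RefSeq order, measured 31.8, 17.7 and 14.8 CPM in electroacupuncture A, B and C, against 24.5 and 19.3 CPM in the model samples and 10.9, 9.54 and 16.4 CPM in controls. Whether a Gad2 value of 0 stands for absent RNA or for the way reads were counted was not tested, and its differences between groups are given by sample for that reason.

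Zeros that differ between repeat columns were rare. In electroacupuncture B, 12 of 11925 genes with at least 5 CPM in one column were at 0 in the other, and the counts were 17 of 12380 in model A and 16 of 11964 in model B. Across the 8 genes other than Gad2, the larger repeat value exceeded the smaller by a median of 3.94% and by at most 31.6%, which was for Npy at about 2 CPM in model B.

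**Figure D3:**
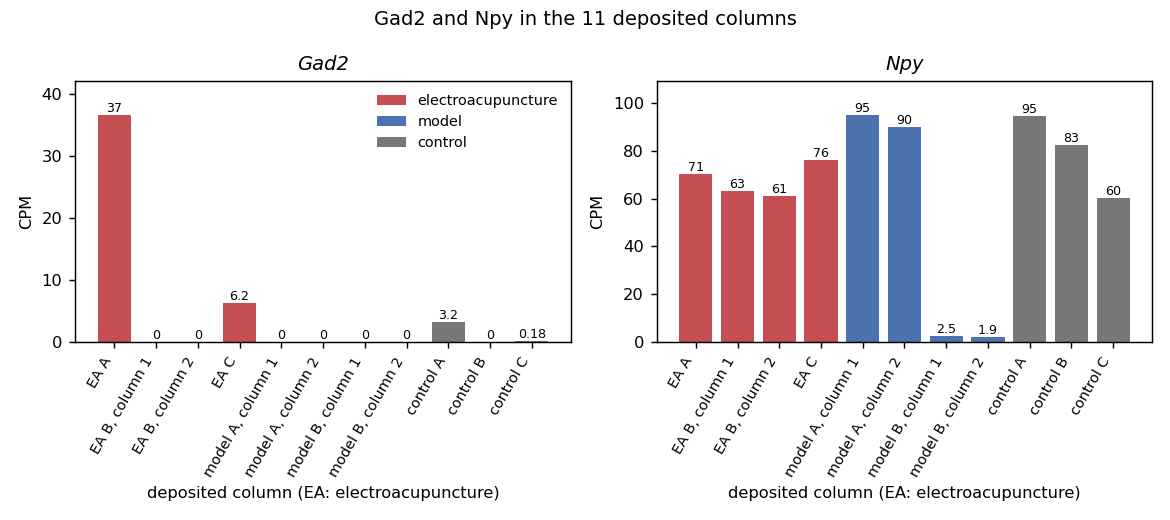
Gad2 (left) and Npy (right) in CPM (linear axis from 0) in each of the 11 deposited columns, coloured by group, with the value above each bar. Gad2 is above 3 CPM in electroacupuncture A, electroacupuncture C and control A only, and Npy is at 2.51 and 1.90 CPM in the 2 columns of model B.

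Over the 9 genes, 0 passed in electroacupuncture against model and 0 in electroacupuncture against control by edgeR's quasi-likelihood test, where 0% of all 15487 genes passed in each. At an unadjusted p under 0.05 edgeR counted 2087 of all genes in the first comparison and 567 in the second. DESeq2 called 4.51% of genes in electroacupuncture against model (1.72% higher and 2.78% lower), with Sst and Cck among those lower (DESeq2 adjusted p = 5.88e-05 and 0.0477), and 0.00646% against control, none of the 9. With every column as a separate library, edgeR called 10.9% of genes in electroacupuncture against model (5.48% higher and 5.4% lower), with Sst, Cck and Lhx6 among those lower (edgeR adjusted p = 0.00265, 0.0389 and 0.0186), and 0% against control. Treating every column as a library counts near-identical columns as independent samples, so those p-values are not read as support. Over all alternatives the adjusted p in electroacupuncture against model ran from 5.88e-05 to 0.480 for Sst, from 0.0389 to 0.592 for Cck and from 0.0186 to 0.576 for Lhx6. The lowest values for Cck and Lhx6 came from the fit with every column separate. Over all tested genes, model against control called 0.00646% by edgeR, 4.93% by DESeq2 (2.69% higher and 2.23% lower) and 7.37% by edgeR with every column separate (3.63% higher and 3.75% lower). No call is given there for the 9 genes, since their choice used those values.

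By sample ranges, Sst, Cck and Lhx6 had every electroacupuncture sample below both model samples, 3 of 9 genes where 11.7% of all tested genes did, and 0 of 9 were above, where 13% of all tested genes were. Against controls, Lhx6 and Gad1 had every electroacupuncture sample above every control, 2 of 9 where 5.97% of tested genes did, and 0 of 9 were below, where 4.89% were. In the comparison whose values were known, 6 of 9 had both model samples above every control, where 18.1% of tested genes did, and 0 of 9 were below, where 19.8% were. Nothing is read from that count, which the choice of the genes set. The other counts of ranges, and the medians that follow, use the same model or control samples. The choice may have shaped them too, so nothing is read from them either. The median log2 fold change of the 9 genes was -0.31 in electroacupuncture against model, where it was 0.03 over all tested genes, and -0.48 without Gad2. It was 0.33 in electroacupuncture against control, where it was 0.01 over all tested genes, and 0.23 without Gad2.

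**Figure D4:**
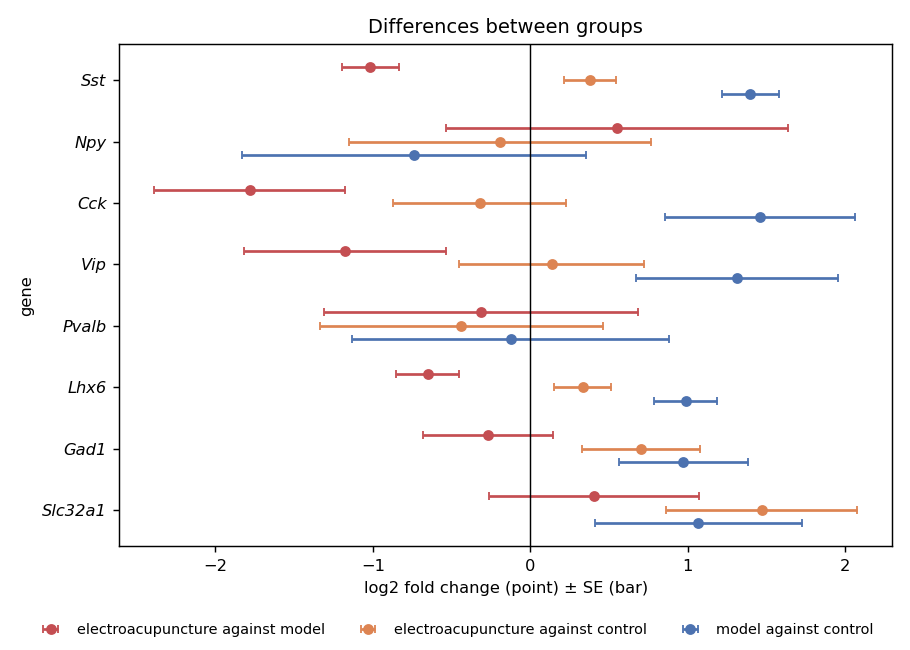
Log2 fold changes (points) with their standard errors (bars) for 8 of the 9 genes, Gad2 left out because its fold change is not a measured size, in electroacupuncture against model, electroacupuncture against control and model against control. Sst and Lhx6 have the shortest bars, at an SE of 0.16 to 0.20, and Npy and Pvalb the longest, at 0.90 to 1.09.

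Related genes were read from lists drawn up with earlier results of these data known. Of 26 further subtype markers of interneurons, 9 were higher and 17 lower in estimate with electroacupuncture than in the model, with a median log2 fold change of -0.34, and 0 passed (edgeR). Pdyn, the gene of the opioid peptide dynorphin, measured 116, 45.7 and 41.6 CPM in electroacupuncture A, B and C, against 21.0 and 8.24 CPM in the 2 model samples (log2 fold change 2.21, SE 0.63, edgeR adjusted p = 0.216), and 25.0, 37.2 and 55.5 CPM in the controls. Every electroacupuncture sample lay above both model samples. The highest sample for Pdyn, electroacupuncture A, was also the highest in Drd2. Both model samples, and electroacupuncture A as well, were low in Prox1. The part of these regional differences in the Pdyn values was not tested. Penk, the gene of the enkephalins, measured 1249, 38.7 and 26.7 CPM in the electroacupuncture samples, 168 and 101 CPM in the model samples and 29.8, 30.1 and 34.0 CPM in the controls. Tac1, the gene of substance P, measured 126, 4.89 and 4.11 CPM with electroacupuncture, 21.2 and 7.80 CPM in the model and 2.75, 3.41 and 3.85 CPM in controls. Penk and Tac1 are also peptides of striatal projection neurons, and electroacupuncture A and model A were their highest samples, as for Drd2. Sncg, gamma-synuclein, which mouse cholecystokinin basket cells express, measured 18.9, 70.6 and 39.5 CPM with electroacupuncture, 16.5 and 9.65 CPM in the model and 75.6, 44.5 and 76.3 CPM in controls, an order unlike that of Cck.

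Among 15 tested transcription factors of interneuron development, 6 were higher and 9 lower in estimate with electroacupuncture than in the model (median log2 fold change -0.14), and 10 were higher and 5 lower than in controls (median 1.56), with 0 passing in either comparison (edgeR). The difference from controls lay mostly in electroacupuncture A: the mean log2 difference from the control mean over the 15 tested genes was 1.98, 0.21 and 0.22 for the electroacupuncture samples A to C, and 2.01 and 0.47 for the model samples A and B. Dlx2, which starts the GABAergic programme, measured 22.5, 0.467 and 0.632 CPM in electroacupuncture A, B and C, against 6.48 and 0.654 CPM in the 2 model samples and 0.275, 0.114 and 0.458 CPM in controls. Sp9, which striatal neurons need in mice, measured 16.8, 0.935 and 0.422 CPM with electroacupuncture, 5.67 and 0.818 CPM in the model and 0.641, 0.568 and 0.549 CPM in controls. Nkx2-1, the factor of the medial ganglionic eminence that switches on Lhx6 in mice, measured 11.1, 8.79 and 10.2 CPM with electroacupuncture, 52.3 and 10.4 CPM in the model and 13.9, 16.4 and 4.21 CPM in controls. Maf, a factor of interneurons that also occurs in microglia, measured 34.3, 43.8 and 51.0 CPM with electroacupuncture, 94.5 and 64.8 CPM in the model, a log2 fold change of -0.89 (SE 0.22, edgeR adjusted p = 0.174), and 52.9, 60.4 and 51.1 CPM in controls. Microglial markers summed to 298 to 833 CPM with electroacupuncture, 330 to 629 CPM in the model and 203 to 291 CPM in controls, and none of the 10 was at 0. Their part in the Maf values was not tested.

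The receptors of these peptides passed in 0 cases (edgeR), with 4 higher and 7 lower in estimate with electroacupuncture than in the model among 11 tested (median log2 fold change -0.31). Sstr1, a somatostatin receptor, measured 1.29995, 7.56 and 3.58 CPM in electroacupuncture A, B and C, against 6.69 and 11.4 CPM in the 2 model samples and 2.20, 2.16 and 3.75 CPM in controls. Sstr4, another somatostatin receptor, measured 0.780, 5.44 and 3.16 CPM with electroacupuncture, 1.82 and 1.69 CPM in the model and 4.397, 3.64 and 5.04 CPM in controls. The receptors of somatostatin therefore did not follow a common order. Npy1r, a neuropeptide Y receptor, measured 3.38, 17.8 and 20.03 CPM with electroacupuncture, 15.5 and 31.2 CPM in the model and 13.2, 18.1 and 15.7 CPM in controls. Cckbr, the main cholecystokinin receptor of the brain, measured 15.2, 11.8 and 5.69 CPM with electroacupuncture, 10.5 and 30.4 CPM in the model and 4.21, 4.66 and 5.13 CPM in controls. It had every electroacupuncture sample above every control (log2 fold change 1.22, SE 0.48, edgeR adjusted p = 0.843) and both model samples above every control.

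Among 15 genes of peptide processing and dense-core vesicles, 8 were higher and 7 lower in estimate with electroacupuncture than in the model (median log2 fold change 0.00196, 0 passing, edgeR). Pcsk1, a convertase that cuts peptide precursors, measured 1.13, 7.22 and 7.17 CPM in electroacupuncture A, B and C, against 0.428 and 2.24 CPM in the 2 model samples and 10.99, 6.59 and 7.05 CPM in controls. Scg2, secretogranin II of the vesicle core, measured 125, 321 and 276 CPM with electroacupuncture, 147 and 81.6 CPM in the model and 337, 301 and 251 CPM in controls. Both were low in electroacupuncture A and in the model samples, the 3 samples that were low in Prox1. Ptprn2, a membrane protein of the vesicles, measured 110, 96.3 and 85.7 CPM with electroacupuncture, 102 and 180 CPM in the model and 80.1, 68.3 and 78.7 CPM in controls. Cadps2, which primes the vesicles for release, measured 5.20, 37.0 and 30.7 CPM with electroacupuncture, 30.3 and 35.2 CPM in the model and 24.6, 28.5 and 27.1 CPM in controls, low in electroacupuncture A alone.

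Of 12 tested genes of GABA uptake, breakdown and chloride balance, 5 were higher and 7 lower in estimate with electroacupuncture than in the model (median log2 fold change -0.03), and 0 passed (edgeR). Slc12a2, the importer of chloride NKCC1, measured 89.1, 108 and 80.1 CPM in electroacupuncture A, B and C, against 69.1 and 55.3 CPM in the 2 model samples (log2 fold change 0.57, SE 0.24, edgeR adjusted p = 0.367) and 64.7, 61.4 and 96.2 CPM in controls. Abat, the enzyme that breaks GABA down, measured 55.3, 26.0 and 46.5 CPM with electroacupuncture, 42.3 and 28.5 CPM in the model and 29.6, 43.9 and 25.3 CPM in controls. Slc38a1, a glutamine transporter that supplies GABA synthesis, measured 120, 80.3 and 69.4 CPM with electroacupuncture, 106 and 112 CPM in the model and 75.2, 53.9 and 55.0 CPM in controls. Of 11 tested genes of the inhibitory synapse scaffold and GABA-B receptors, 7 were higher and 4 lower in estimate with electroacupuncture than in the model (median log2 fold change 0.20, 0 passing, edgeR). Gabbr2, a GABA-B receptor subunit, measured 62.0, 331 and 264 CPM with electroacupuncture, 225 and 460 CPM in the model and 372, 315 and 282 CPM in controls. Nlgn2, an adhesion protein of inhibitory synapses, measured 70.5, 75.7 and 50.2 CPM with electroacupuncture, 38.2 and 59.5 CPM in the model and 71.6, 55.3 and 48.4 CPM in controls.

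**Figure D5:**
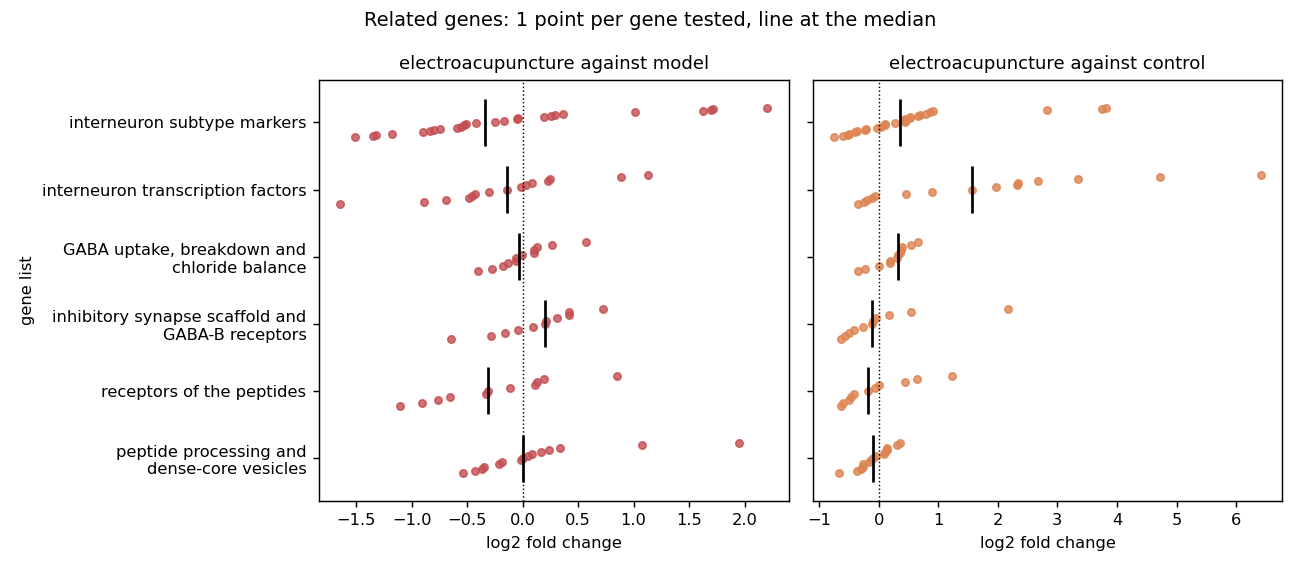
Log2 fold changes of each tested gene in 6 lists of related genes, electroacupuncture against model on the left and against control on the right, with a black line at the median of each list. The medians on the left run from -0.34 for subtype markers to 0.20 for the inhibitory synapse scaffold, and the median on the right is 1.56 for transcription factors, whose mean log2 difference from controls was 1.98 in electroacupuncture A and at most 0.22 in the other 2 electroacupuncture samples.

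The 9 genes did not vary as a unit. Over the 8 samples, Pearson's r of log2 CPM was 0.96 between Cck and Vip, 0.92 between Gad1 and Slc32a1, and 0.90 between Sst and Lhx6. It was -0.92 between Pvalb and Slc32a1 and -0.85 between Pvalb and Gad1. These are descriptions with no test, over 8 samples of 3 groups. Each pair of genes was read from the same libraries, which differed in depth and in regional markers. The gene most like Sst in this measure, over genes averaging 1 CPM or more, was Gpr15 (r = 0.98), which stood at 0.780, 1.02 and 1.159 CPM in the electroacupuncture samples, 4.12 and 3.60 CPM in the model samples and 0.641, 0.909 and 0.549 CPM in controls. The gene most like Gad1 after Iqca1 (r = 0.99) was Dlx1 (r = 0.99), at 122, 14.9 and 16.1 CPM with electroacupuncture, 90.7 and 21.6 CPM in the model and 14.1, 13.2 and 11.8 CPM in controls. The likest to Npy were Ppp1r3c (r = 0.996) and RGD1311345 (r = 0.995), both among the 44 genes that were low in model B alone. The gene most like Gad2 was Dip2a (r = 0.96). The highest r was 0.99 for Cck with Tspyl4, 0.98 for Vip with Mroh5, 0.99 for Pvalb with Mical2, 0.99 for Lhx6 with LOC688708 and 0.99 for Slc32a1 with Tk1.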

How the data were processed

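The deposited values are estimated counts (expected counts) per gene, made by the authors without normalization. The table has 18804 rows and 11 columns, and values that are not whole carry at most 2 decimals. The submitters' processing notes list DESeq2 1.16.1, featureCounts 1.5.0-p3, StringTie 1.3.3b and HISAT2 2.0.5, with no roles or order. The sources used here name no genome build, and do not say how multi-mapping reads or the molecular identifiers in the adapters were handled. Column names give the group but not the labelled sample. Symbols on 2 rows (4) were summed and values were rounded.

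Columns of a group differing by under 2 times the sampling variance (over genes whose 2 columns held 20 counts or more together) were summed, as in an earlier account of these data. Genes were tested in 1 fit of all 8 samples with edgeR 4.0.16 in R 4.3.3 (TMM, default expression filter, robust quasi-likelihood F test, two-sided, 5 residual degrees of freedom). The common biological coefficient of variation was 36.8%. Standard errors were derived from the F statistic, and CPM used TMM scaling. The fit was run on simulated counts drawn with its own estimates of spread, and the check was only that the fold changes put in were recovered. The simulation held no outlying sample, so it does not bear on how many genes passed here. DESeq2 1.42.0 was an alternative.

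The genes, lists and alternatives were chosen with earlier results of these data known. Named besides the 9 genes were those passing the threshold and up to 4 per list with the largest fold change of electroacupuncture against model at a mean of at least 1 CPM, the defining regional markers, and the 2 genes most like each of the 9. Some genes that the rule names are not reported here. Exceptions are marked as chosen after their values were seen. The spread that the p-values rest on may be partly technical, since separate animals are not stated.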

Additional observations from a re-analysis of the deposited data

How the results depend on the processing

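The count of genes passing in electroacupuncture against model was 0 in the reported fit, 1666 with every column as a separate library and 698 with DESeq2, and ran from 0 to 308 when 1 sample was left out (278 without electroacupuncture A, 308 without model A). In electroacupuncture against control it was 0, 1 with DESeq2, and 0 to 0 when 1 sample was left out. In model against control it was 1, 1129 with every column separate, 763 with DESeq2, 294 with only the 2 groups in the fit, 0 with total counts, and 0 to 565 when 1 sample was left out (565 without electroacupuncture A, 356 without model A). Total counts moved the median log2 fold change of all genes in that comparison to 0.13, against 0.02 with TMM. The fits with every column separate counted near-identical columns as independent samples.

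Log2 fold changes turned in sign only where 1 sample was left out. In electroacupuncture against model they ran over these fits from -0.41 to 4.98 for Npy, from -1.04 to 1.25 for Pvalb, from -0.76 to 0.27 for Gad1 and from -0.67 to 0.92 for Slc32a1. In electroacupuncture against control they ran from -0.61 to 0.12 for Cck, from -0.26 to 0.58 for Vip (-0.0563 without electroacupuncture C) and from -1.06 to 0.0919 for Pvalb. In model against control they ran from -5.17 to 0.22 for Npy and from -1.69 to 0.61 for Pvalb (0.0701 without control B). Sst kept its sign throughout, from -1.12 to -0.89 in electroacupuncture against model and from 0.29 to 0.50 against control, as did Lhx6, from -0.81 to -0.47 and from 0.24 to 0.43. The cause was not tested. No paired analysis was possible because the columns could not be tied to the numbered samples of the labels. Counting error is largest for Gad2, for Vip in electroacupuncture A (36 counts) and for Npy in model B (40 counts).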
